A study of Homo sapiens with 11 samples.

Results

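The Notch genes described here are 10 human genes of the Notch pathway, namely the receptors NOTCH1, NOTCH2 and NOTCH3, the ligands JAG1, JAG2 and DLL1, and the effectors HES1, HES4, HEY1 and HEYL. They were chosen by gene symbol, and all 10 were found among the 23434 rows of the authors' deposited table. The samples were liver tumours formed by PANC1 LM3 cells. PANC1 is a long-established human cell line from a ductal carcinoma of the pancreas, and LM3 is its liver-metastatic derivative of the third generation. In each of the 3 groups the cells expressed a hairpin RNA, either 1 of 2 hairpins against NPTX1 (shNPTX1_3, 3 libraries, and shNPTX1_4, 4 libraries, both labelled as NPTX1 knock down) or a control hairpin (shCTRL, 4 libraries, labelled as WT). On day 1 the spleen received 500000 cells, and liver tumours were taken on day 21. The sources used here do not give the host's species, strain and age, nor whether each library came from its own animal. The libraries are labelled as biological replicates, and a p-value covers the spread between these libraries only.

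Notch receptors are single-pass membrane proteins that are activated by ligands on a neighbouring cell. Ligand binding exposes the receptor to cleavage by ADAM proteases and then by gamma-secretase, and the released intracellular domain enters the nucleus, where it joins the DNA-binding protein RBPJ and a Mastermind coactivator. The best known targets of that complex are the HES and HEY genes, which encode basic helix-loop-helix repressors. In the developing pancreas the pathway, with HES1, holds progenitors in an undifferentiated state, and it is active again in precursor lesions of pancreatic carcinoma.

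The authors' deposited table gives a mean normalized count for each group (counts divided by library size factors, with the libraries of a group averaged) and 1 comparison by DESeq2, the 7 libraries of both hairpins pooled as 1 group over the 4 of shCTRL. Single libraries were not analysed here. The group means therefore carry no SD, and each log2 fold change carries the SE (standard error) that the authors' deposited table lists for it. The smallest steps among low group means, each worth 1 read in 1 library, gave library depths, as reads on genes, of 10800000 to 24000000 in shNPTX1_3, 16600000 to 26100000 in shNPTX1_4 and 13000000 to 41200000 in shCTRL. NPTX1, the targeted gene, encodes neuronal pentraxin 1 and had authors' means of 46.5 normalized counts in shNPTX1_3 and 38.4 in shNPTX1_4, against 102.9 in shCTRL. Its log2 fold change of -1.26 (SE 0.24) per the authors' deposited table had a DESeq2 adjusted p of 3.65e-06. The labelled carcinoma cells were checked by markers: VIM, KRT8, KRT18, KRT19, EPCAM and CDH1 were all present. The authors' deposited table listed a rise in log2 of 1.35 for KRT8, 1.11 for KRT18 and 2.30 for KRT19. EPCAM, CDH1 and VIM did not reach a DESeq2 adjusted p of 0.05 (0.665, 0.275 and 0.184). The summed authors' means of these 6 markers were 125410 normalized counts in shNPTX1_3 and 97319 in shNPTX1_4, against 76768 in shCTRL. VIM was the largest part of each sum, with 68671.5 in shNPTX1_3 and 68304.7 in shNPTX1_4, against 60617.2 in shCTRL. Of the hepatocyte markers, ALB, TTR and APOA2 had authors' means of at most 1.35 normalized counts in every group. APOA1, SERPINA1, APOB, FGB and CYP3A4 were higher. Their authors' means ran from 8.75 normalized counts for CYP3A4 in shNPTX1_4 to 49.3 for APOA1 in shNPTX1_3.

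Among the Notch genes, the receptor gene NOTCH3 and the effector genes HEYL and HES4 fell in the knockdown tumours, and the ligand gene DLL1 rose. The abundant members NOTCH2, JAG1 and HES1 did not pass the test, nor did NOTCH1, JAG2 or HEY1. In the authors' deposited table, 4 of the 10 members thus passed a DESeq2 adjusted p of 0.05, 1 higher and 3 lower. Of all 18426 named genes tested, 27.3% passed in either direction, 15.8% higher and 11.5% lower. The median log2 fold change was -0.14 over the 10 members and -0.01 over all genes tested per the authors' deposited table.

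**Figure D1:**
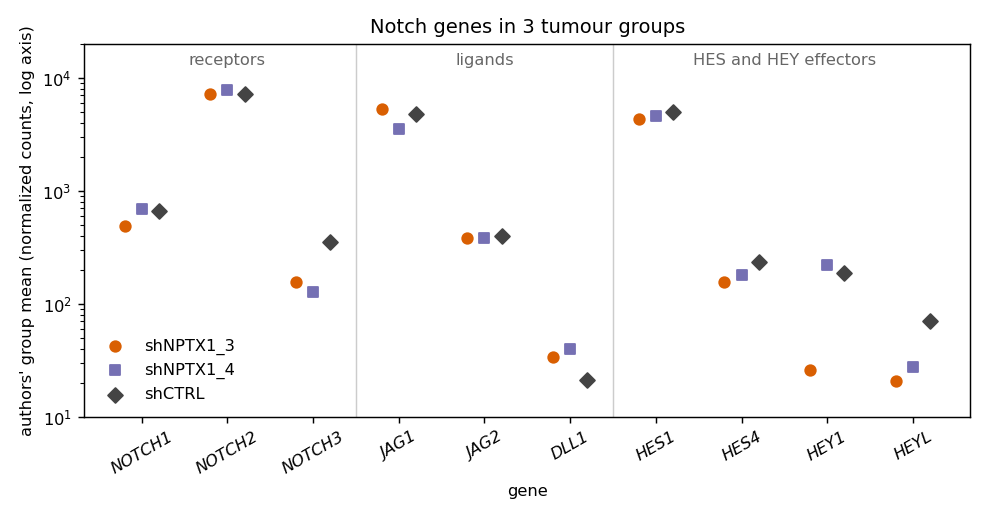
Authors' mean normalized count (log axis) of each Notch gene in shNPTX1_3 (circles), shNPTX1_4 (squares) and shCTRL (diamonds) tumours; each point is 1 group mean, with no error available. Both knockdown means lie below control for NOTCH3, HES4 and HEYL and above it for DLL1, while HEY1 is at 25.7 in shNPTX1_3 and at 219 in shNPTX1_4.

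Among the receptors, NOTCH3, which is best known from vascular smooth muscle but is also expressed in carcinomas, had authors' means of 156 normalized counts in shNPTX1_3 and 128 in shNPTX1_4, against 350.4 in shCTRL. Both hairpins were thus below control, at 0.445-fold with shNPTX1_3 and 0.366-fold with shNPTX1_4. NOTCH3 fell by 1.35 (log2) per the authors' deposited table (SE 0.14, DESeq2 adjusted p = 5.7e-21), or 0.393-fold with a 95% interval from 0.327 to 0.472. NOTCH2, the receptor with the highest mean, had authors' means of 7252 normalized counts in shNPTX1_3 and 7834 in shNPTX1_4, against 7197 in shCTRL. Its log2 fold change of 0.08 per the authors' deposited table had an interval from -0.06 to 0.21 (DESeq2 adjusted p = 0.417), the narrowest interval among the members. NOTCH1, the founding member of the family, had authors' means of 487 normalized counts in shNPTX1_3 and 697 in shNPTX1_4, against 662 in shCTRL. The hairpins were on different sides of control for NOTCH1, and the joint log2 fold change of -0.12 per the authors' deposited table did not pass (interval from -0.41 to 0.16, DESeq2 adjusted p = 0.563). NOTCH2 shares nearly identical exons with its human-specific NOTCH2NL copies. The row NOTCH2NL had authors' means of 2598 normalized counts in shNPTX1_3 and 2621 in shNPTX1_4, against 3418 in shCTRL, and fell by 0.39 per the authors' deposited table (adjusted p = 0.00114 by DESeq2). The sources used here do not say how reads common to these genes were divided, so the level of NOTCH2 is uncertain.

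Levels of different genes were set side by side per kilobase of transcript. NOTCH4, the receptor outside the members, was added to complete the family. In shNPTX1_3 tumours NOTCH2 stood at 637 normalized counts per kilobase, NOTCH1 at 52.4, NOTCH4 at 47.7 and NOTCH3 at 18.0. In shNPTX1_4 tumours NOTCH2 stood at 688 per kilobase, NOTCH1 at 74.9, NOTCH4 at 43.4 and NOTCH3 at 14.8. In shCTRL tumours the order was the same, with NOTCH2 at 632 per kilobase, NOTCH1 at 71.1, NOTCH4 at 66.6 and NOTCH3 at 40.4. NOTCH2 made up 84.4% of the receptor sum in shNPTX1_3 and 83.8% in shNPTX1_4, against 78.0% in shCTRL, and NOTCH3 made up 2.39% in shNPTX1_3 and 1.80% in shNPTX1_4, against 4.99% in shCTRL. These shares have no error, so the order of close neighbours such as NOTCH1 and NOTCH4 was not tested.

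Among the ligands, DLL1, a Delta-type ligand, had authors' means of 33.4 normalized counts in shNPTX1_3 and 39.6 in shNPTX1_4, against 21.1 in shCTRL. Both hairpins lay above control, at 1.59-fold with shNPTX1_3 and 1.88-fold with shNPTX1_4. DLL1 rose by 0.86 (log2) per the authors' deposited table (SE 0.24, DESeq2 adjusted p = 0.00234), or 1.82-fold with a 95% interval from 1.32 to 2.51. Its mean over all libraries, 31.2 normalized counts, is the lowest of the 10 members. DLL1 overlaps FAM120B on the other strand and the lincRNA gene AL078605.1 on its own strand. The sources used here do not state whether counting used strand, and strand alone would not separate DLL1 from the lincRNA, so its level is uncertain. JAG1, a Jagged-type ligand prominent in bile duct and pancreatic duct biology, had authors' means of 5331 normalized counts in shNPTX1_3 and 3520 in shNPTX1_4, against 4760 in shCTRL. JAG1 was above control with shNPTX1_3 and below it with shNPTX1_4, and the joint log2 fold change of -0.15 per the authors' deposited table did not pass (interval from -0.49 to 0.19, DESeq2 adjusted p = 0.556). JAG2, the other Jagged ligand, had authors' means of 379 normalized counts in shNPTX1_3 and 386 in shNPTX1_4, against 401 in shCTRL. Its log2 fold change of -0.07 per the authors' deposited table had an interval from -0.26 to 0.13 (DESeq2 adjusted p = 0.656).

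Per kilobase, JAG1 was the highest of the ligands in all 3 groups, with 897 normalized counts in shNPTX1_3 and 593 in shNPTX1_4, against 801 in shCTRL. DLL3, a divergent ligand that is not a member and is known mainly as an intracellular inhibitor, came next with 414 per kilobase in shNPTX1_3 and 509 in shNPTX1_4, against 410.3 in shCTRL. JAG2 stood at 65.0 per kilobase in shNPTX1_3 and 66.1 in shNPTX1_4, against 68.8 in shCTRL. DLL1 stood at 10.5 per kilobase in shNPTX1_3 and 12.5 in shNPTX1_4, against 6.63 in shCTRL. DLL1 thus made up 0.757% of the ligand sum in shNPTX1_3 and 1.05% in shNPTX1_4, against 0.514% in shCTRL. DLL4, the Delta ligand of endothelium, was lower still, at 3.74 per kilobase in shNPTX1_3 and 3.45 in shNPTX1_4, against 3.39 in shCTRL.

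**Figure D2:**
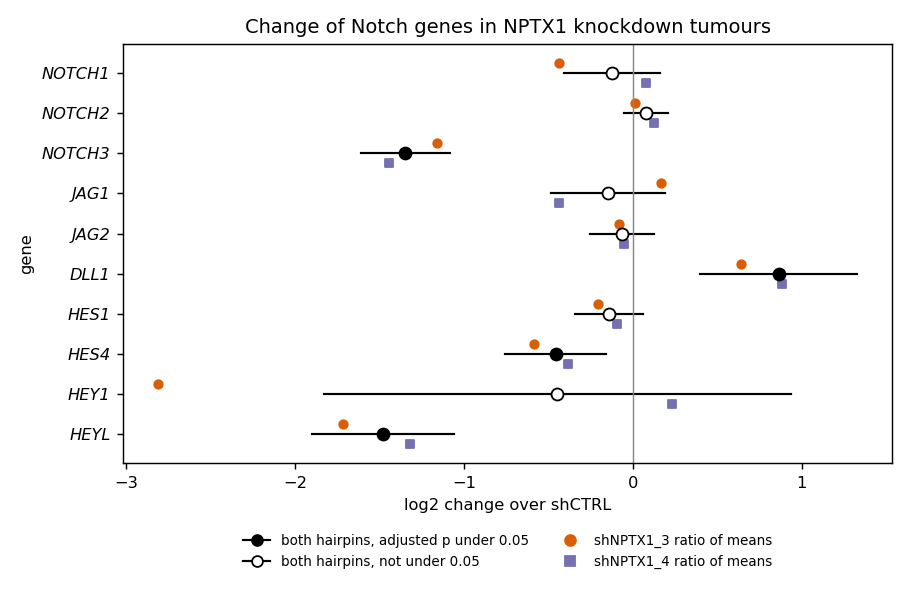
Log2 change over shCTRL for each Notch gene: large black or white circles with bars are the log2 fold change of both hairpins together per the authors' deposited table with its 95% interval (filled where the DESeq2 adjusted p is under 0.05), and small coloured symbols are the log2 ratios of group means for each hairpin, with no test. NOTCH3, HES4 and HEYL lie left of 0 and DLL1 right of 0 with both hairpins, and HEY1 has the widest interval, from -1.83 to 0.93.

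Among the effectors, HEYL, a HEY family repressor known from mural cells and muscle, had authors' means of 20.8 normalized counts in shNPTX1_3 and 27.5 in shNPTX1_4, against 70.4 in shCTRL. Both hairpins were below control, at 0.295-fold with shNPTX1_3 and 0.391-fold with shNPTX1_4. HEYL fell by 1.48 (log2) per the authors' deposited table (SE 0.21, DESeq2 adjusted p = 3.2e-10), or 0.359-fold with a 95% interval from 0.268 to 0.480. HES4, a HES family repressor present in humans but not in mice, had authors' means of 157 normalized counts in shNPTX1_3 and 181 in shNPTX1_4, against 236 in shCTRL. HES4 fell by 0.46 per the authors' deposited table (SE 0.15, DESeq2 adjusted p = 0.0151), a smaller change on the same side with both hairpins. HES1, the most abundant effector, had authors' means of 4296 normalized counts in shNPTX1_3 and 4638 in shNPTX1_4, against 4954 in shCTRL. Both hairpins were slightly below control, but the log2 fold change of -0.14 per the authors' deposited table did not pass (DESeq2 adjusted p = 0.317), with an interval from -0.34 to 0.06. The interval of HES4 ran from -0.76 to -0.16 and overlaps that of HES1, while those of HEYL (-1.90 to -1.06) and NOTCH3 (-1.61 to -1.08) do not. A difference in change between HES1 and these genes was not tested directly. HEYL overlaps an antisense gene, as do NOTCH1 and JAG1, and without the strand setting their reads cannot be told apart. JAG2 overlaps a processed transcript on its own strand, from which strand would not separate it.

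Per kilobase, HES1 made up 94.2% of the sum over the 4 effectors in shNPTX1_3 and 91.4% in shNPTX1_4, against 90.6% in shCTRL. HES1 stood at 2722 normalized counts per kilobase in shNPTX1_3 and 2939 in shNPTX1_4, against 3139 in shCTRL. HES4 stood at 151 per kilobase in shNPTX1_3 and 174 in shNPTX1_4, against 227 in shCTRL. HEYL was the lowest effector in all 3 groups, at 5.67 per kilobase in shNPTX1_3 and 7.52 in shNPTX1_4, against 19.2 in shCTRL.

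HEY1, a HEY family repressor active in vascular development, differed most between the hairpins. Its authors' means were 25.7 normalized counts in shNPTX1_3 and 219 in shNPTX1_4, against 186 in shCTRL. HEY1 was 0.138-fold of control with shNPTX1_3 and 1.18-fold with shNPTX1_4, and 8.52-fold higher in shNPTX1_4 than in shNPTX1_3. In the authors' deposited table the 2 hairpins enter as 1 group, and the log2 fold change of -0.45 carried an SE of 0.71 (DESeq2 adjusted p = 0.674). That error was wide for a gene of this level: the median was 0.15 over 2249 tested genes within 1.5 times its mean, and 99.7% of them had a smaller one. Of 14131 genes whose mean reached 38.6 normalized counts (2 CPM, taking the summed overall means as the total) and no group at 0, 6 had a larger ratio between the hairpins in either direction. A test of HEY1 within 1 hairpin needs single libraries and was not made.

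**Figure D3:**
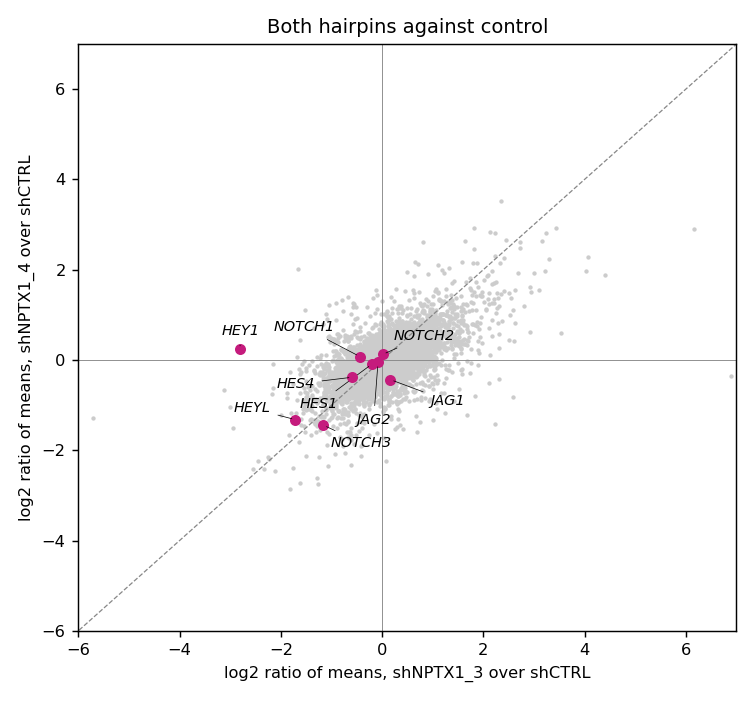
Log2 ratio of group means over shCTRL for shNPTX1_3 (x axis) and shNPTX1_4 (y axis), with a pseudocount of 1; grey points are 14131 genes at 2 CPM or more, labelled points are the 9 Notch genes at that level, and the dashed line marks equal ratios. HEYL and NOTCH3 lie low with both hairpins, and HEY1 is at -2.81 with shNPTX1_3 and 0.23 with shNPTX1_4; both axes share the same controls.

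Between the hairpins, HEY1 was the 1 member at least 2-fold apart among the 9 whose overall mean reached 38.6 normalized counts, against 2.68% of the 14131 genes, with no test. HEYL reached that minimum only through its mean of 70.4 normalized counts in shCTRL, and DLL1, at 21.1 in shCTRL, did not reach it, so members were not counted by their fold over control.

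The sequences upstream of 3 effectors are shown because RBPJ, the DNA-binding partner of cleaved Notch, is known to bind before HES1. Promoter windows of 300 bases (250 before and 50 after the annotated start) were found for 8 of the 10 members in the RefSeq table of build GRCh38.p14; DLL1 and HEY1 had none. The RBPJ core TGGGAA, searched on both strands, occurred in the windows of HES1, HES4 and HEYL and in none of the other 5. It occurred in 24.0% of 35116 promoter windows of the same length, and at least 2 matches in 3.80%. The 250 bases before each start are given 5′ to 3′ on the gene's strand, with matches to the core (or its reverse complement) in capitals. They lie at chr1:39639644-39639893 (minus strand) for HEYL, chr1:1000098-1000347 (minus strand) for HES4 and chr3:194135898-194136147 (plus strand) for HES1.
HEYL: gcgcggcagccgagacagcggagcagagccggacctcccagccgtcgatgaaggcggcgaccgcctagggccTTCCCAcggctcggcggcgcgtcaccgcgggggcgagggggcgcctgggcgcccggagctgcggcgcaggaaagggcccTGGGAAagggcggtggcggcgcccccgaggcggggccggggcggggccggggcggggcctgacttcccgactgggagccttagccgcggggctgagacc
HES4: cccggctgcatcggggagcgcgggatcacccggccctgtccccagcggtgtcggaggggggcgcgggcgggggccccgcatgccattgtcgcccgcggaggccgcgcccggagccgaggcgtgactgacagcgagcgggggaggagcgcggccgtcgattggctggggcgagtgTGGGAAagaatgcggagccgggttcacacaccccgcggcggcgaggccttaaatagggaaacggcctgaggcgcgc
HES1: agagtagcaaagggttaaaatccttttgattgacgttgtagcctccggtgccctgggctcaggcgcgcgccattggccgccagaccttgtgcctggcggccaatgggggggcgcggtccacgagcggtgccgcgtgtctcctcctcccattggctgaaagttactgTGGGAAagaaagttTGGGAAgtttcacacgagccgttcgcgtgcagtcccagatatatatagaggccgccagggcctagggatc

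HES1 held 2 copies of the core on its own strand, beginning 84 and 70 bases before the start. HES4 held 1 copy beginning 76 bases before the start, in the same orientation. HEYL held 2 copies in opposite orientation, beginning 178 and 99 bases before the start. Only exact matches to the core were sought, so variant sites and the pairing of sites were not assessed in any of these genes. A HES repressor can act on N-boxes (CACNAG), and HES1, known to repress its own gene, held 4 matches to that motif, which 38.0% of all windows hold at least once; 2 of the 4 also match the class C motif CACGNG, which 30.5% of windows hold. HES4 and HEYL held no N-box in the window. The HEY-bound E-box (CANNTG, in 68.7% of windows) was present in JAG2 among the 8 members. All 3 effectors with a window thus held a core match: HEYL and HES4, which fell, and HES1, which did not pass. NOTCH3, which also fell, held no match, so a match did not separate the members that fell from the others. A match in letters is not a binding site.

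**Figure D4:**
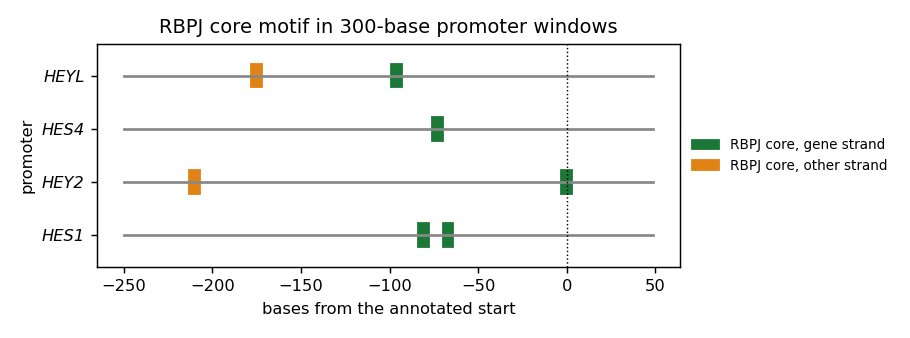
Positions of the RBPJ core motif in 300-base windows around the annotated start (bases from the start on the x axis) of HEYL, HES4, HEY2 and HES1; green boxes are matches on the gene's strand and orange boxes matches on the other strand. HES1 and HES4 hold matches between 84 and 65 bases before the start, and HEYL at 178 and 99 bases. HEY2, which is not a member, holds 1 far upstream and 1 across the start. NRARP, NOTCH4, HES2 and HES6, also searched outside the members, held no match and are not drawn.

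The rest of the pathway was described with 8 lists of 75 genes in all. Of 70 with an adjusted p, 9 rose and 17 fell per the authors' deposited table by DESeq2, a share of 37.1% beside 27.3% of all genes tested, and the median log2 fold change was 0.03. Among receptors and ligands outside the members, NOTCH4, which is best known from endothelium, fell by 0.56 per the authors' deposited table (SE 0.12, DESeq2 adjusted p = 2.37e-05), with authors' means of 322 normalized counts in shNPTX1_3 and 293 in shNPTX1_4, against 449 in shCTRL. DLL3 and DLL4 did not pass, and the authors' deposited table gave them log2 fold changes of 0.19 and 0.09. DLK1 and DLK2 did not pass either, and the median of the 5 genes was 0.13.

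Among 10 tested genes of the list of other effectors and targets, 1 rose and 5 fell per the authors' deposited table. Their median was -0.41 and the share that passed 60%, beside 27.3% of all genes tested. HEY2, another HEY repressor gene, fell by 1.47 per the authors' deposited table (SE 0.34, DESeq2 adjusted p = 2.09e-04), with authors' means of 8.63 normalized counts in shNPTX1_3 and 22.1 in shNPTX1_4, against 46.4 in shCTRL. NRARP, a Notch target that promotes turnover of the receptor's intracellular domain, had authors' means of 402 normalized counts in shNPTX1_3 and 468 in shNPTX1_4, against 818 in shCTRL, and fell by 0.89 per the authors' deposited table (SE 0.11). Cyclin D1 (CCND1) fell by 0.55 per the authors' deposited table. HES6, a HES protein that opposes HES1, rose by 0.59 per the authors' deposited table (DESeq2 adjusted p = 0.0120). HES5, a neural effector, had authors' means of 3.16 normalized counts in shNPTX1_3 and 4.31 in shNPTX1_4, against 5.27 in shCTRL, and did not pass. HES2 and SOX9, chosen after their values were seen, fell by 0.48 and 0.35 per the authors' deposited table. NEUROG3, PTF1A and ATOH1, which HES1 is known to repress, were listed at 0 in every group.

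**Figure D5:**
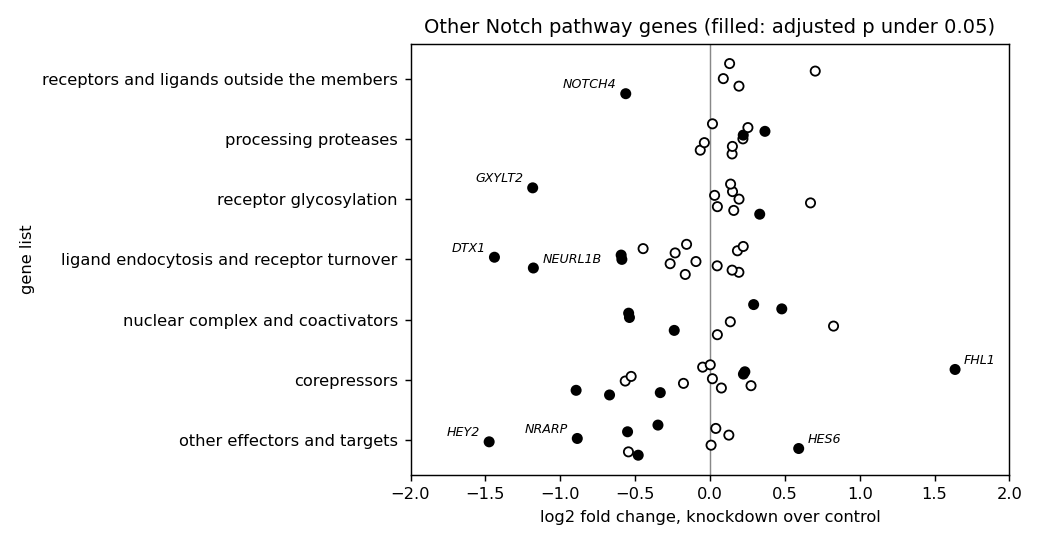
Log2 fold change, knockdown over control, per the authors' deposited table for the tested genes of 7 pathway lists outside the 10 members; each circle is 1 gene, filled where the DESeq2 adjusted p is under 0.05. HEY2, NRARP, GXYLT2, DTX1 and NEURL1B lie far left of 0 and FHL1 far right.

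Among genes that make and turn over the receptors, medians of the log2 fold change were 0.15 for processing, 0.15 for glycosylation and -0.17 for endocytosis and turnover, beside -0.01 over all genes tested. The shares that passed were 22.2%, 22.2% and 26.7% in the same order, near or below the 27.3% of all genes tested. Of 9 processing proteases and gamma-secretase genes, 2 rose and 0 fell per the authors' deposited table: nicastrin (NCSTN) by 0.22 and APH1A by 0.37, both named after their values were seen. Of 9 receptor glycosylation genes, 1 rose and 1 fell per the authors' deposited table: POFUT1, which adds O-fucose and was named after its value was seen, rose by 0.33. GXYLT2, which adds xylose to O-glucose, fell by 1.18 per the authors' deposited table (SE 0.24), with authors' means of 61.7 normalized counts in shNPTX1_3 and 32.7 in shNPTX1_4, against 100.4 in shCTRL. Of 15 genes of ligand endocytosis and receptor turnover, 0 rose and 4 fell per the authors' deposited table, encoding ubiquitin ligases, as most genes of the list do: NEURL1B by 1.18, DTX1 by 1.44, DTX2 by 0.59 and NEDD4 by 0.59. DTX1 was low throughout, at no more than the 10.3 normalized counts of shCTRL in any group.

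In the nucleus, RBPJ itself did not pass, with a log2 fold change of 0.05 per the authors' deposited table and authors' means of 1354 normalized counts in shNPTX1_3 and 1394 in shNPTX1_4, against 1333 in shCTRL. Of 8 genes of the nuclear complex and its coactivators, 2 rose and 3 fell per the authors' deposited table: the acetyltransferase genes EP300 and CREBBP each fell by 0.54. MAML1 fell by 0.24, and KAT2B and SNW1 rose by 0.48 and 0.29 per the authors' deposited table, all 3 named after their values were seen. The median of these 8 was 0.09 and the share that passed 62.5%, beside 27.3% of all genes tested. Of 14 corepressor genes, 3 rose and 3 fell per the authors' deposited table, with a median of -0.02 and a share of 42.9%. SPEN, part of a repressor complex at RBPJ, fell by 0.67 per the authors' deposited table. FHL1, of which 1 isoform binds RBPJ, rose by 1.64 per the authors' deposited table (SE 0.44), with authors' means of 1360 normalized counts in shNPTX1_3 and 487 in shNPTX1_4, against 277 in shCTRL. NCOR1, which fell by 0.33, and CTBP1 and CTBP2, which rose by 0.22 and 0.23 per the authors' deposited table, were named after their values were seen.

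NOTCH3, HEYL, HEY1, HEY2 and NOTCH4 are also genes of vessel walls, and in bulk tissue fewer cells of a type and less RNA per cell cannot be told apart. The rows carry human gene symbols, and neither the host's species nor the handling of host reads is given. Whether the cell type markers below count host cells or expression in the carcinoma cells is therefore not known. Of 8 mural cell and fibroblast markers, 7 were tested, and LUM alone rose (1.16) and 0 fell per the authors' deposited table, where 2, LUM and RGS5, had an unadjusted p under 0.05. The summed authors' means of these markers were 4286 normalized counts in shNPTX1_3 and 2299 in shNPTX1_4, against 2498 in shCTRL, with CSPG4 and COL1A1 the highest. CSPG4 alone was the largest part of each sum, with 3295 in shNPTX1_3 and 1097 in shNPTX1_4, against 1561 in shCTRL. The pericyte marker RGS5 had authors' means of 91.4 normalized counts in shNPTX1_3 and 83.7 in shNPTX1_4, against 65.2 in shCTRL, with a log2 fold change of 0.43 per the authors' deposited table that did not pass (unadjusted p = 0.0161, DESeq2 adjusted p = 0.0566). Smooth muscle actin (ACTA2) had authors' means of 163 normalized counts in shNPTX1_3 and 75.6 in shNPTX1_4, against 128 in shCTRL. The authors' means of PDGFRB were 6.32 normalized counts in shNPTX1_3 and 6.44 in shNPTX1_4, against 7.58 in shCTRL, and those of DES were at most 1.42 in any group. Of 8 endothelial markers, 7 were tested and 0 rose or fell by DESeq2 per the authors' deposited table, where 1, PECAM1, had an unadjusted p under 0.05 (0.0307). Their sums were 470.4 normalized counts in shNPTX1_3 and 397 in shNPTX1_4, against 416 in shCTRL, with KDR and PECAM1 the highest. VWF, TEK and CLDN5 had authors' means of at most 3.68 normalized counts in any group. CDH5 differed between the hairpins, with authors' means of 32.3 normalized counts in shNPTX1_3 and 1.80 in shNPTX1_4, against 6.88 in shCTRL. It did not pass with both hairpins together (DESeq2 adjusted p = 0.533). Of 8 leukocyte markers, 6 were tested and 0 rose or fell by DESeq2 per the authors' deposited table, 0 also at an unadjusted p under 0.05. Their sums were 929.6 normalized counts in shNPTX1_3 and 767 in shNPTX1_4, against 868 in shCTRL. CD68 was the largest part, with authors' means of 794 normalized counts in shNPTX1_3 and 635 in shNPTX1_4, against 697 in shCTRL. CD3E was at 0 in shNPTX1_4 and shCTRL. Of 8 hepatocyte markers, 5 were tested, APOA1 rose by 1.77 per the authors' deposited table, and the sums were 165 normalized counts in shNPTX1_3 and 89.4 in shNPTX1_4, against 89.7 in shCTRL. The part of these cell types in the changes of the Notch genes was not tested.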

How the data were processed

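Per the labels' protocols, a Norgen kit gave the tumour RNA and a TruSeq version 2 kit the libraries. DESeq2 1.24, featureCounts 2.0.0, STAR 2.7.6a and MultiQC 1.9 stand in the submitters' processing notes with the builds hg19 and mm39 but no roles. The sources used here do not state the strand setting or the handling of host reads. The values in the authors' deposited table are group means of normalized counts, a signal that is never negative, and 1 comparison with its log2 fold change, standard error, Wald score, p-value and adjusted p-value, per the file headers. Weighted by library number, the group means gave the overall mean in 21894 of 21898 rows (relative tolerance 1e-06). As no column holds a single library, the planned edgeR alternative was not used and the DESeq2 adjusted p of the deposited comparison was the test.

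Of 23434 rows, 107 were left out: 79 without a name, 26 named by dates and 2 with a repeated name. Intervals are the log2 fold change ± 1.96 standard errors. Hairpin ratios are log2 ratios of group means with a pseudocount of 1. Lengths are those of the longest coding transcript of each gene in the GENCODE 29 basic set (GRCh38), a build other than the authors', so no gene coordinates are printed. Promoters and their coordinates are RefSeq's on GRCh38.p14. Read depth was taken from the most frequent low group means, 1 step per library. Scaling and adjustment steps were tested on simulated data. Analyses used Python 3.11.15, numpy 2.4.6, pandas 2.3.3 and scipy 1.17.1. The members and lists were chosen with earlier results of these data known. All members are named; of the other lists, NOTCH4, DLL3, DLL4, RBPJ, HES5, HEY2 and NRARP and the 12 other called genes with the largest change are named, and further names are marked. Some genes that the list counts include are not reported here by name or value. Alternatives were other scalings, filters, thresholds and pseudocounts.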

Additional observations from a re-analysis of the deposited data

How the results depend on the processing

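Every alternative run kept the direction of the members' log2 fold changes with both hairpins together, but this was largely fixed in advance. Filters and thresholds leave these values as they are. The scalings only lower them, so only NOTCH2 and DLL1, the members with a positive value, could have turned. NOTCH2 went from 0.08 to 0.01 with equal totals. Scaling the groups to equal totals lowers all log2 fold changes by 0.07, and centring on the median gene lowers them by 0.02. The count of members that fell was 3 under each scaling and filter and 2 at an adjusted p under 0.01, where HES4 (adjusted p = 0.0151) was lost. The count that rose was 1 throughout, except 0 when only genes at 2 CPM or more were kept, since DLL1 lies under that minimum by construction. Among the other pathway genes, 6 to 9 rose and 15 to 21 fell. Of 60 hairpin ratios under other pseudocounts or equal totals, 1 changed sign: NOTCH2 with shNPTX1_3 was -0.08 with equal totals and 0.01 otherwise. This count was also largely fixed in advance. A pseudocount cannot turn a sign, and equal totals lower every ratio, so only positive ratios under equal totals could have turned. With each hairpin alone, NOTCH1 with shNPTX1_4 (0.08), JAG1 with shNPTX1_3 (0.16) and HEY1 with shNPTX1_4 (0.23) lay on the other side of control from the joint value, and none of these 3 was called. No paired analysis was possible because the table holds group means, not single libraries, and for the same reason leaving out single replicates was not run. Depth limits the low genes: DLL1 had a standard error of 0.24 against a median of 0.13 for genes at 2 CPM or more.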

Other observations

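Among the 63 other pathway genes with a mean of at least 2 CPM, 6 were at least 2-fold apart between the hairpins, against 2.68% of all genes at that level; these genes were named after their values were seen, and no difference was tested. The Mastermind coactivator gene MAML2 had authors' means of 306 normalized counts in shNPTX1_3 and 1276 in shNPTX1_4, against 486 in shCTRL, and was 4.17-fold higher in shNPTX1_4 than in shNPTX1_3. MAML3, its relative, had authors' means of 405 normalized counts in shNPTX1_3 and 997 in shNPTX1_4, against 677 in shCTRL. Both thus lay below control with shNPTX1_3 and above it with shNPTX1_4, the same arrangement as HEY1. The other 4 were higher in shNPTX1_3: the corepressor gene TLE4, the cell cycle inhibitor gene CDKN1A, FHL1 and NEURL1B. TLE4 had authors' means of 368 normalized counts in shNPTX1_3 and 163 in shNPTX1_4, against 361 in shCTRL, and CDKN1A had 1398 in shNPTX1_3 and 547 in shNPTX1_4, against 887 in shCTRL.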
